A study of Mus musculus with 4 samples.

Results

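The genes described here carry mammalian cells through DNA replication and division: D- and E-type cyclins with their kinases, the inhibitors of those kinases, the machinery that licenses and fires replication origins, enzymes that make deoxynucleotides, and the kinases and effectors of mitosis. A list of 39 such genes was matched to the gene names and synonyms of the array annotation, and 33 had a row, out of 20735 named genes in all. Of these, 31 were found by name, 1 (Cdk1, listed as Cdc2a) by synonym and 1 (Cdc45, listed under an older symbol) by gene number. Rows of the other 6 (Cdk6, Ccna2, Ccnb2, Plk1, Bub1 and Ube2c) were not analysed here. Where a member had several rows, the brightest on average across the 4 arrays was kept.

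RNA of 4 samples, labelled as CD4+ T cells from the spleens of FVB/N mice, was hybridised to single-colour arrays. The groups were CD4+CD62Lhi cells called naive, from wild type mice and from mice labelled with miR-7 deficiency, and cells of each genotype called activated after 48 hours in vitro with antibodies to CD3 and CD28 plus IL-2. There was 1 array for each group, although each sample is described as representing 3 biological replicates, so no difference below can be set against replicate error and none has a p-value. How miR-7 was depleted, and at which of its loci, is not given in the labels.

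Resting T cells sit outside the cell cycle. Stimulation through CD3 and CD28 with IL-2 is known to bring them into G1, S phase and mitosis, with strong induction of Mki67, Top2a, the MCM helicase genes and mitotic cyclins, so these genes bear on whether an array labelled activated reports dividing cells. miR-7 is a short RNA that represses messengers carrying matches to its seed, bases 2 to 8. The mature forms in RefSeq (GRCm38.p6) are shown because they are what the mice are labelled as lacking, with the seed in capitals.
mmu-miR-7a-5p: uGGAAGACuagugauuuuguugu
mmu-miR-7b-5p: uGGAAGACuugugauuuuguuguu
The 2 forms share the seed.

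Intensities below are the deposited normalized values on a linear scale, given for wild type first and miR-7 deficient mice second within each pair of arrays. A floor was set on each array from 668 rows (620 genes) of receptors for odours, pheromones, trace amines and tastes, taken as background, at their 95th percentile. Whether some of these receptors are expressed in the samples was not tested. The floor lay at 983 and 1003 in the naive pair and at 730.5 and 627 in the activated-labelled pair. Of 14 CD4+ T cell markers 11 and 13 were above the floor in the naive pair, but 3 and 2 in the activated-labelled pair, and their summed intensity was 30330 and 36624 against 6349.6 and 8209.5. The 9 neuron markers gave 0 and 0 against 7 and 8, with sums of 2241 and 1965 against 37206 and 61502, and the 7 oligodendrocyte markers gave 1 and 1 against 7 and 7. The 7 astrocyte markers gave 3 and 3 against 7 and 7, and ran both ways. Without a floor 4 of them were higher in the activated-labelled pair in each genotype and 3 were lower. The lower ones were Aqp4 (3458 and 2665 against 1365 and 1316), Gja1 and Glul. The activated-labelled pair thus goes against its label, and directions drawn from it describe those 2 arrays, not activated T cells. Within the naive pair, 4 and 5 of 9 B cell markers (sums of 20383 and 36190.4) and 1 and 3 of 8 neutrophil and myeloid markers (sums of 3034 and 6584) were above the floor. The part of these cell types in the results below was not tested, and in bulk RNA fewer cells of a type and less RNA per cell cannot be told apart.

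**Figure D1:**
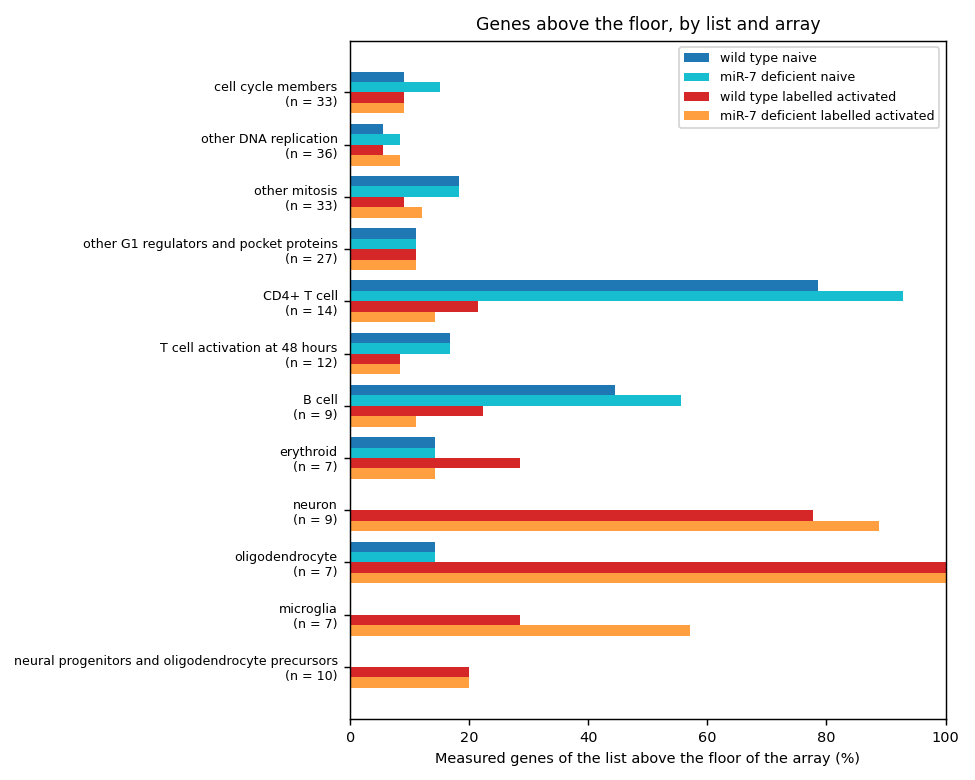
Share of the measured genes of each list shown (%) that lay above the floor on each of the 4 arrays, with 1 bar per array. The astrocyte list and the neutrophil and myeloid list are not shown. Of the 33 cell cycle members 3, 5, 3 and 3 were above the floor, while 11 and 13 of 14 CD4+ T cell markers were above it in the naive pair and 7 and 8 of 9 neuron markers in the activated-labelled pair.

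Most of the cell cycle genes were below the floor on all 4 arrays. The median of the 33 members was nevertheless higher than that of the receptor rows on each array. It was 236 and 327 in the naive pair, against 165 and 138 for the receptors. In the activated-labelled pair it was 190 and 175, against 117 and 110. Above the floor stood 3 of 33 members in wild type naive cells (against 13.8% of all genes) and 5 in miR-7 deficient naive cells (against 14.6%). In the activated-labelled pair it was 3 members each, against 21.9% and 25% of all genes. Ccnd2, Cdk4 and Pcna passed on all 4 arrays, and Mcm6 and Mcm7 passed in miR-7 deficient naive cells alone. In all, 5 of 33 members (15.2%) were above a floor somewhere, against 29.5% of genes, and the other 28 read between 42.2 and 921. No member passed in the activated-labelled pair without also passing in the naive pair.

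**Figure D2:**
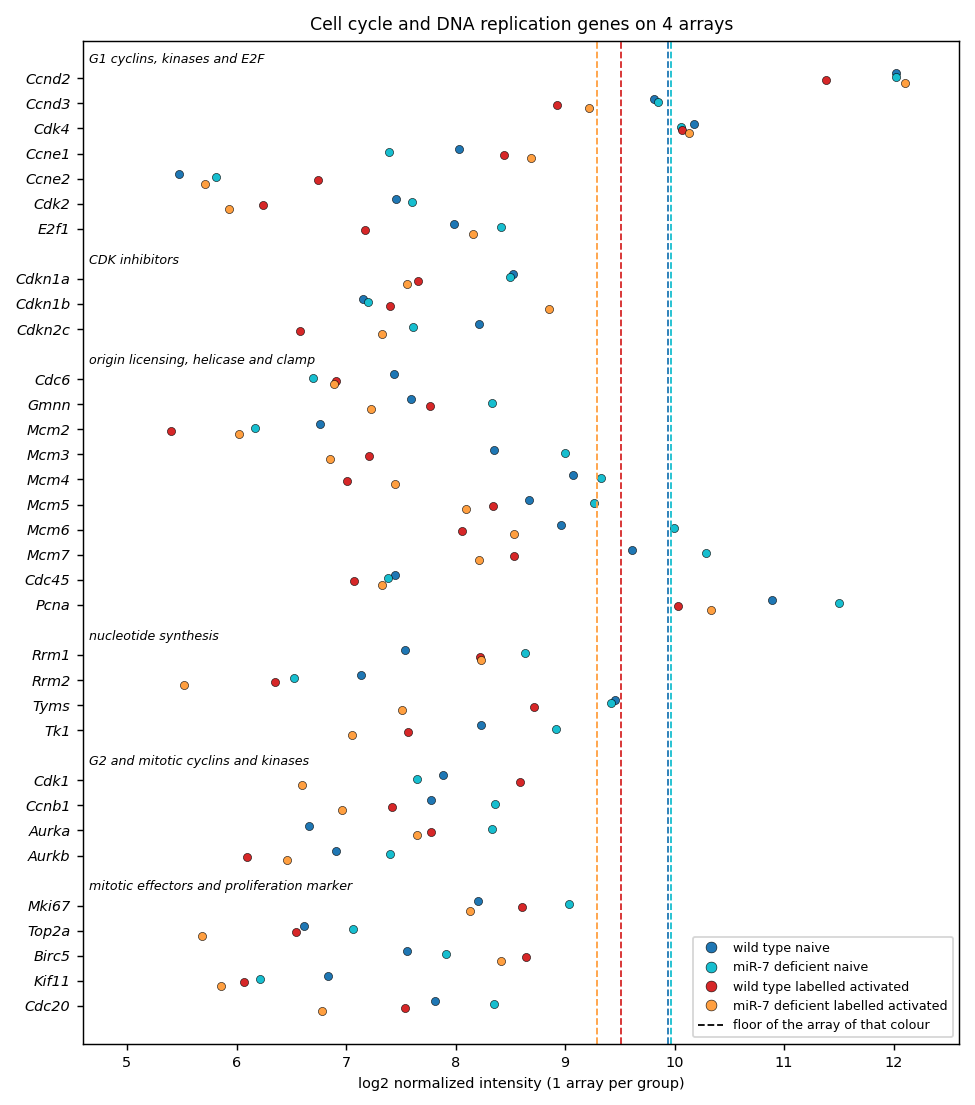
Log2 normalized intensity of the 33 measured members, grouped by role, with 1 point for each of the 4 arrays and the floor of each array as a dashed line of the same colour. Ccnd2, Cdk4 and Pcna lay above all 4 floors, Mcm6 and Mcm7 passed in miR-7 deficient naive cells, and the other 28 members lay below.

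Mki67, Top2a and Cdk1, 3 markers of dividing cells, were below every floor. Pcna and the mitotic genes Kif23, Hmmr and Pttg1, given further on, passed on every array. Mki67, which encodes a nuclear antigen of cycling cells, read 294 and 524 in the naive pair and 391 and 279.9 in the activated-labelled pair. Top2a, the topoisomerase that untangles chromosomes before mitosis, read 98.1 and 134 against 93.1 and 51.3. Cdk1, the kinase that starts mitosis, read 236 and 200.05 against 385 and 96.7. In miR-7 deficient mice all 3 were lower on the array labelled activated than on the naive one, and in wild type Mki67 and Cdk1 were higher there and Top2a lower. Other rows of Mki67 read 437 and 418 against 302 and 268, and 128 and 188 against 54.3 and 74.1. Both of these were lower in wild type cells labelled activated than in wild type naive cells, opposite to the row kept.

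Among the G1 regulators, a D-type cyclin and its kinase were above the floor throughout. Ccnd2, which links mitogen signals to the start of the cycle, read 4168 and 4155 in the naive pair and 2664 and 4400.2 in the activated-labelled pair. The wild type array labelled activated was the low one, and the other 3 were within a narrow range. Cdk4, the kinase that phosphorylates the retinoblastoma protein, read 1159 and 1065 against 1074 and 1119, with all 4 values close together. It stood only a little above the naive floors of 983 and 1003, and passed on no array with the floor at the 99th percentile. Ccnd3, another D-type cyclin, read 901 and 921 against 488 and 595, below each floor. Ccne1, Ccne2, Cdk2 and E2f1, which act at entry into S phase, read between 44.4 and 413.

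Ccnd2 had a second row, which read 371 and 876 against 452 and 894 and passed the floor in miR-7 deficient cells labelled activated alone. On that row, without a floor, miR-7 deficient cells were higher by 1.24 on the log2 scale in the naive pair, where both values lie below the floor, and by 0.98 in the activated-labelled pair, where the wild type value does. The row kept gave -0.00 and 0.72.

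The 3 inhibitors of cyclin-dependent kinases were below every floor. Cdkn1a, the p53 target p21, read 369 and 362 in the naive pair and 201 and 188 in the activated-labelled pair. Cdkn1b, which encodes the quiescence inhibitor p27, read 142 and 147 against 169 and 461, and Cdkn2c, an inhibitor of CDK4 and CDK6, read 297 and 196 against 95.9 and 160.4. The row kept of Cdkn1a was lower in the activated-labelled pair in both genotypes, but without a floor another row was higher in miR-7 deficient mice (0.44) and the remaining row in wild type (0.13). For Cdkn1b the miR-7 deficient array labelled activated was highest on the row kept but lowest on its second row, which read 224 and 90.4 against 99.6 and 46.0.

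Of the replication genes, Pcna was above the floor on all 4 arrays and highest in miR-7 deficient naive cells. Pcna, the sliding clamp of DNA polymerase, read 1898 and 2905 in the naive pair and 1045 and 1292 in the activated-labelled pair, and its second row read 1648 and 2656 against 706 and 1108. Mcm6 read 499 and 1017 against 267 and 371. Mcm7 read 780.3 and 1248 against 371 and 296. Mcm6 and Mcm7 encode subunits of the hexameric helicase that unwinds origins. Neither was above the floor on the other 3 arrays, so their highest value is the one by which they passed. The remaining helicase subunits were below every floor throughout. Mcm2 read 108 and 72.0 against 42.2 and 65.1, and Mcm3 read 326 and 512 against 148 and 116. Mcm4 read 539 and 644 against 129 and 175, and Mcm5 read 409 and 615 against 324 and 273. On the rows kept, 6 of 6 MCM genes were lower in the activated-labelled pair in each genotype, and 5 of 6 were higher in miR-7 deficient than in wild type naive cells, Mcm2 being lower. Of all genes 56.2% and 55.1% were lower in the activated-labelled pair without a floor (73.5% and 71% of the receptor genes), and 52.3% were higher in miR-7 deficient naive cells. The second row of Mcm5 (465 and 381 against 204 and 280.02) was lower in miR-7 deficient naive cells. The loading factor Cdc6, the licensing inhibitor Gmnn and the helicase cofactor Cdc45 read between 104 and 323.

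Many genes of this group are known targets of E2F, the factor that the retinoblastoma protein restrains until G1 kinases act. The promoter windows of the 3 replication genes above a floor are shown for that reason (RefSeq, GRCm38.p6, from 250 bases before to 50 after the start; the reference is not of the FVB/N strain). Capitals mark matches on either strand to 7 letters of E2F sites, which were TTCGCGC in a first form, TTGGCGC in another and TTCCCGC in the last. Where matches overlap, the capitals run on.
Mcm6 promoter, chr1:128359656-128359955, minus strand: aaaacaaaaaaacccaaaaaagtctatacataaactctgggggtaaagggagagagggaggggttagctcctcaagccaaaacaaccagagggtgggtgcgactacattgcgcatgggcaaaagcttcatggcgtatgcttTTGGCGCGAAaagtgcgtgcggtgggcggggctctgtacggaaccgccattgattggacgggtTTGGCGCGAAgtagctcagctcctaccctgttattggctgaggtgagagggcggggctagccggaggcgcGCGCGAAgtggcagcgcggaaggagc
Mcm7 promoter, chr5:138171834-138172133, minus strand: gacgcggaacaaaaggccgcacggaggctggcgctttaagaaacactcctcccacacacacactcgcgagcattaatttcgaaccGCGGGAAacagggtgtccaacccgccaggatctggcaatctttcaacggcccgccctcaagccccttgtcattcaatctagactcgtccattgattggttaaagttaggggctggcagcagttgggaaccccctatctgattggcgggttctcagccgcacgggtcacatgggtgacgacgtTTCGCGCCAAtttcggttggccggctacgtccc
Pcna promoter, chr2:132253131-132253430, minus strand: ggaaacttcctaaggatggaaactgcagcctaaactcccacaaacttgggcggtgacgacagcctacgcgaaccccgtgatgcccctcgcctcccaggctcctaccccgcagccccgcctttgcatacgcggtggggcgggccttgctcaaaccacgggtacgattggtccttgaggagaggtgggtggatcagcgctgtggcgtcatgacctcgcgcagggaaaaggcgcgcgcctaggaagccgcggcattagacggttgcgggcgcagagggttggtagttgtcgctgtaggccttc
The Mcm6 window held 5 matches, among them 2 overlapping pairs. The Mcm7 window held 3, with 1 overlapping pair, and a second Mcm7 start held 1. The Pcna window held 0, which says only that these letters are not in it. Of the 33 members 28 had a window in the table, and 11 of the 28 held an E2F match, in 12 of 32 windows (37.5%) against 8.07% of all 32851 windows. CCAAT, the NF-Y box, was in 21 of the 32 windows (65.6%) against 37.4% of all, and TTTGAA, the cell cycle homology region, in 8 (25%) against 17.9%. These are matches of letters, not binding sites.

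Enzymes of nucleotide synthesis and the remaining mitotic genes among the members were below every floor. Tyms, thymidylate synthase, read 704 and 686 in the naive pair and 420.1 and 183 in the activated-labelled pair, and its second row read 339.5 and 162 against 194 and 249. The reductase subunits Rrm1 and Rrm2 and thymidine kinase Tk1 read between 45.9 and 483. Ccnb1, the aurora kinases Aurka and Aurkb, the survivin gene Birc5, the spindle motor Kif11 and the anaphase activator Cdc20 read between 58.0 and 399. Of all members below every floor, Birc5 (189 and 241 against 399 and 340.4), Ccne1 (262 and 168 against 349 and 413) and Cdkn1b were higher in the activated-labelled pair in both genotypes, on the rows kept. The second row of Cdkn1b was lower there in both genotypes (-1.17 and -0.97 without a floor). Aurka read 101 and 322 against 219.7 and 200.2 on the row kept and 194 and 74.7 against 137 and 202 on the other, so its rows ran opposite ways in every comparison.

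Rows of the same gene often disagreed at these levels. Over the 13 members with several rows, all rows of a gene had the same sign in 7 genes between labelled activated and naive cells of wild type mice, in 7 for the same difference in miR-7 deficient mice, in 6 between genotypes in the naive pair and in 5 in the activated-labelled pair. For Pcna both rows had the same sign in every comparison.

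**Figure D3:**
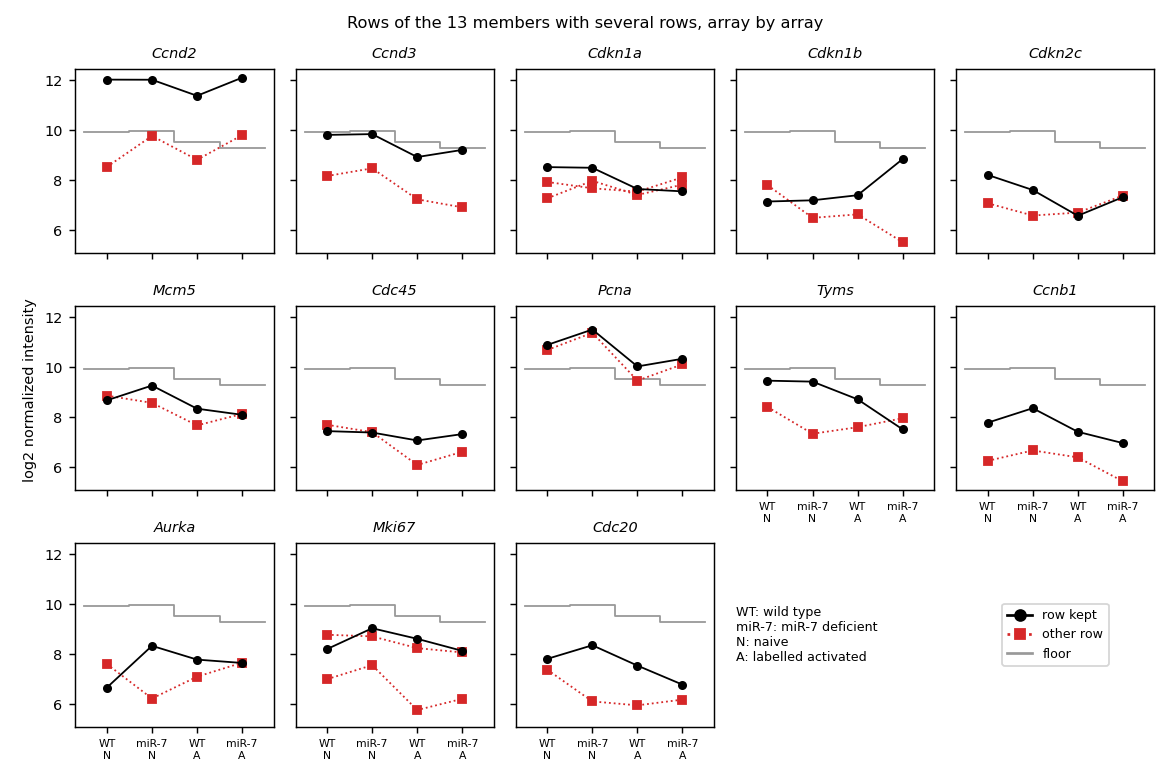
Log2 normalized intensity of every row of the 13 members with several rows, on the 4 arrays in the order wild type naive (WT N), miR-7 deficient naive (miR-7 N), and the same genotypes labelled activated (A), with the floor in grey. The 2 rows of Pcna followed each other, whereas those of Aurka, Tyms and Cdkn1b ran opposite ways below the floor in at least 1 comparison.

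In wild type mice, Pcna and Ccnd2 were lower on the array labelled activated. Pcna differed by -0.86 on the log2 scale, Ccnd2 by -0.65 and Cdk4 by -0.11. Cdk4 turned to 0.03 when centred on the median difference, and the second row of Ccnd2, below both floors, gave 0.28 without a floor. Rows of a gene had a pooled SD of 0.45 in this comparison, a spread within arrays and not between replicates. Of these 3 members 0 were 2-fold or more apart, against 23.4% of 5091 genes above a floor (14.6% higher and 8.78% lower). Without a floor, 24 of 33 members were lower (72.7%, against 56.2% of all genes and 73.5% of the receptor genes used as background) and 9 were higher (against 43.8% of all genes). The median was -0.65 for the members, -0.17 for all genes and -0.56 for the receptor genes. Lower by 2-fold or more were 6 members (18.2%, against 18.3% of all genes and 27.4% of the receptor genes). Higher by as much were 3 (9.09%, against 18.4% of all genes and 4.19% of the receptor genes), Ccne2 at 1.27, Aurka at 1.12 and Birc5 at 1.08. The share of members that were lower by any amount was close to that of the receptor genes. All 14 of 14 CD4+ T cell markers were lower here too, with a median of -2.33 without a floor, and their part in the members' difference was not tested.

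In miR-7 deficient mice the same comparison gave a lower Pcna beside nearly equal Ccnd2 and Cdk4. Pcna differed by -1.17 (2.25-fold lower), Ccnd2 by 0.08 and Cdk4 by 0.07, beside a pooled SD of 0.45 between rows. Mcm7 was at least 1.99-fold and Mcm6 at least 1.62-fold lower, and without a floor they differed by -2.07 and -1.45. Of the 5 members above a floor 1 (Pcna) was 2-fold or more apart, against 26% of 5675 genes (11.2% higher and 14.8% lower), and Mcm6 and Mcm7 could take this sign only. Without a floor 27 of 33 were lower (81.8%, against 55.1% of all genes and 71% of the receptor genes) and 6 higher (against 44.9% of all genes). Their median was -0.94, beside -0.13 for all genes and -0.43 for the receptor genes. Lower by 2-fold or more were 15 members (45.5%, against 18.1% of all genes and 25% of the receptor genes). Higher by as much were 2 (6.06%, against 16.6% of all genes), Cdkn1b at 1.65 and Ccne1 at 1.30. By role, 9 of 10 licensing, helicase and clamp genes were lower, 4 of 4 nucleotide synthesis genes and 4 of 4 mitotic cyclins and kinases. So were 4 of 5 mitotic effectors, 4 of 7 G1 cyclins, kinases and E2F (median -0.11) and 2 of 3 kinase inhibitors. All but Pcna, Ccnd2, Cdk4, Mcm6 and Mcm7 lay below both floors. These counts use the rows kept, and rows differed in sign for 6 of the 13 members with several rows. On their second rows, without a floor, Tyms (0.62) and Cdc20 (0.07) were higher and Cdkn1b (-0.97) was lower. In the same comparison 14 of 14 CD4+ T cell markers were lower, with a median of -2.41 without a floor, and their part in the members' difference was not tested.

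**Figure D4:**
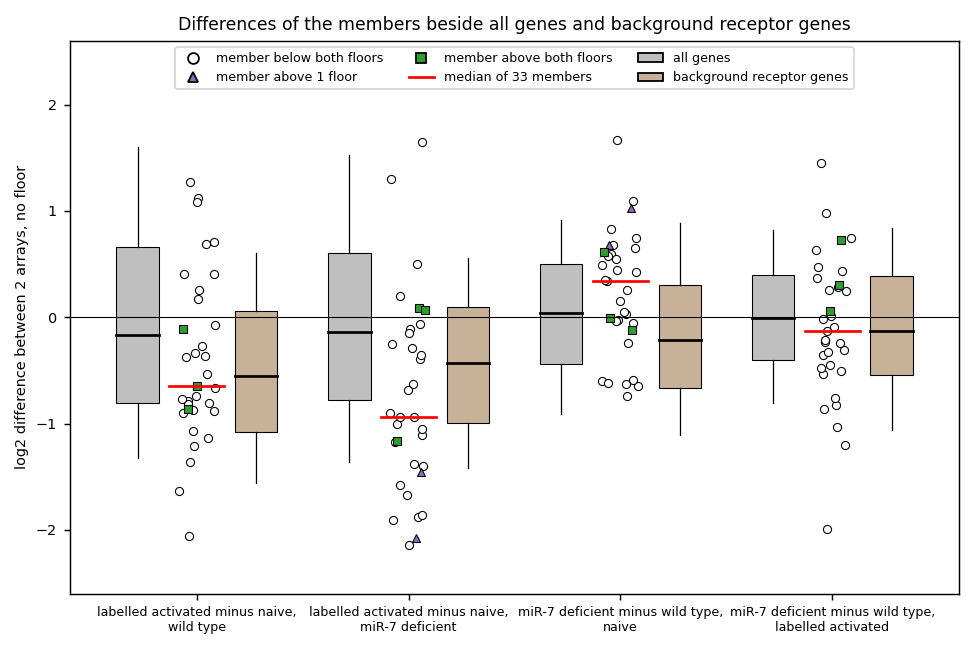
Log2 difference without a floor of the 33 members in the 4 comparisons, as points marked by how many of the floors the gene passed, beside boxes for all genes and for the background receptor genes (quartiles and median, whiskers from the 10th to the 90th percentile). The members' medians, as red lines, were -0.65, -0.94, 0.34 and -0.13 from left to right, and those of the receptor genes -0.56, -0.43, -0.22 and -0.13.

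Between the genotypes in the naive pair, Pcna was higher in miR-7 deficient cells, by 0.61 on the row kept and 0.69 on the other. All 4 of these intensities lie above their floors, and the pooled SD between rows was 0.34. Mcm7 was at least 1.27-fold and Mcm6 at least 1.03-fold higher, with 0.68 and 1.03 on the log2 scale without a floor. Both were above the floor in miR-7 deficient cells alone and could take this sign only, and for Mcm6 no bound was left (0.00) with the trend on intensity removed or with the pair normalized alone. Ccnd2 differed by -0.00 and Cdk4 by -0.12. Of these 5 members 0 were 2-fold or more apart, against 2.85% of 3433 genes. Without a floor 21 of 33 were higher (63.6%, against 52.3% of all genes and 40.8% of the receptor genes) and 12 lower (against 47.7% of all genes). Their median was 0.34, beside 0.04 for all genes and -0.22 for the receptor genes. Higher by 2-fold or more were 3 (9.09%, against 8.27% of all genes), Aurka at 1.67, Rrm1 at 1.09 and Mcm6, and 0 were lower by as much (against 8.47%). Licensing, helicase and clamp genes were higher in 7 of 10, with a median of 0.60. B cell markers were higher in 7 of 9 and neutrophil and myeloid markers in 7 of 8, with medians of 0.89 and 0.95 without a floor. T cell activation markers were higher in 8 of 12, 4 of them by 2-fold or more, with a median of 0.78 without a floor. Of these 4, the growth regulator Myc (962 and 2302) passed the floor in miR-7 deficient cells alone, and Cd69, Irf4 and Gzmb lay below both floors. The other 4 of the 12 were lower, among them Tnfrsf4 (1032 and 769), which passed in wild type cells alone. The part of these lists in the members' difference was not tested.

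Between the genotypes in the activated-labelled pair, the 3 members above the floor were higher in miR-7 deficient mice. Ccnd2 differed by 0.72, Pcna by 0.31 and Cdk4 by 0.06, beside a pooled SD of 0.35 between rows. Of these 3 members 0 were 2-fold or more apart, against 4.64% of 5576 genes. The second row of Pcna differed by 0.65 without a floor, its wild type value lying below it. Without a floor 14 of 33 were higher (against 49.4% of all genes and 44.35% of the receptor genes). The other 19 were lower (57.6%, against 50.6% of all genes and 55.65% of the receptor genes). The median was -0.13 for the members, -0.01 for all genes and -0.13 for the receptor genes. Lower by 2-fold or more were 3 (9.09%, against 6.22% of all genes and 11.45% of the receptor genes), Cdk1 at -1.99, Tyms at -1.20 and Ccne2 at -1.03. Higher by as much was 1 (3.03%, against 6.72% of all genes), Cdkn1b at 1.45. The second rows of Tyms (0.36) and Cdkn1b (-1.11) ran the opposite way. Without a floor, microglia markers were higher in miR-7 deficient mice in 7 of 7 and neuron markers in 7 of 9, with medians of 0.66 and 0.37. Among the neuron markers Slc17a7 differed by 4.13, while Gad1 (-0.85) and Nefl (-0.54) were lower. Oligodendrocyte markers were lower in 6 of 7, with a median of -0.26. The part of these lists in the members' difference was not tested.

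The other genes of the pathway are read beside 13.8% and 14.6% of all genes above the floor in the naive pair and 21.9% and 25% in the activated-labelled pair. Of 36 further replication genes 2 and 3 passed the floor in the naive pair and 2 and 3 in the activated-labelled pair. Of 33 mitotic genes 6 and 6 passed against 3 and 4, and of 27 G1 regulators 3 on each array. Rfc2, a subunit of the clamp loader, read 1086 and 1663 in the naive pair and 2128 and 1885 in the activated-labelled pair, lowest in wild type naive cells, and the array labelled activated was higher by 0.97 for wild type and 0.18 for miR-7 deficient mice on the log2 scale. The maintenance methyltransferase Dnmt1 read 1099 and 1185 against 1061 and 978. Chaf1a, a subunit of the chromatin assembly factor, read 926 and 1104 against 555 and 455 and passed the floor in miR-7 deficient naive cells alone.

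Of the mitotic genes above a floor, Kif23, a motor of the central spindle, read 3495 and 2709 in the naive pair and 1145 and 965 in the activated-labelled pair, differing by -1.61 for wild type and -1.49 for miR-7 deficient mice. Smc4, a condensin subunit, read 3180.4 and 2863 against 493 and 483, lower by at least 2.12 and 2.19 on the log2 scale. The chromatin protein Hmgb2 read 1810.02 and 2739 against 481 and 514, lower by at least 1.31 and 2.13. The centromeric histone Cenpa read 1697 and 1407 against 399 and 826, the value of 399 lying below its floor. Lower by 2-fold or more were 4 of 6 mitotic genes above a floor for wild type (against 8.78% of all genes) and 3 of 6 in miR-7 deficient mice (against 14.8%), but 3 and 2 of these were above the floor on the naive array alone and could take this sign only. Hmmr, a spindle protein and hyaluronan receptor, read 16066 and 8423 against 10047 and 9228, and differed by -0.93 between the genotypes in the naive pair. Pttg1, the gene of securin, read 2355 and 2560.4 against 1607 and 2652.

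Of the other G1 regulators, Btg1, an antiproliferative gene abundant in quiescent lymphocytes, read 4494 and 4846 in the naive pair and 1747 and 1089.96 in the activated-labelled pair, and differed by -1.36 for wild type and -2.15 for miR-7 deficient mice. Tob1, a related gene, read 1284 and 1553 against 698 and 696, lower by at least 0.81 for wild type and by 1.16 for miR-7 deficient mice on the log2 scale. Tfdp2, a partner of E2F proteins, read 1252 and 563 against 737 and 409 and passed the floor in wild type mice alone. E2f4, a repressive E2F, read 896 and 1071 against 281 and 338 and passed in miR-7 deficient naive cells alone. Fbxw7, part of a ligase that degrades cyclin E, was the opposite case, at 202 and 346 against 1408 and 3268. It passed in the activated-labelled pair alone, and was 1.21 higher there on the log2 scale in miR-7 deficient mice.

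Genes that mark recent T cell activation were mostly below the floor as well. Of 12 measured, 2 passed on each naive array and 1 on each array labelled activated. Of 10 markers of neural progenitors and oligodendrocyte precursors, the cells that divide in brain tissue, 0 passed in the naive pair and 2 on each array labelled activated. These were Nes (422 and 419 against 1011 and 636) and Olig1 (146 and 56.6 against 1885 and 1224). Erythroid genes, whose precursors divide in mouse spleen, had 1 of 7 above the floor on each naive array and 2 and 1 in the activated-labelled pair. The globin genes ran opposite ways, Hba-a1 at 2556 and 1844 against 1356 and 345, and Hbb-b1 at 719.6 and 516 against 2680.4 and 1258.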

How the data were processed

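RNA was labelled with Cy3 and hybridised to NimbleGen arrays, per the labels' protocols; their growth and treatment fields concern bacteria, so sorting and stimulation are known from the sample descriptions. The authors normalized by RMA (robust multi-array average), per the submitters' processing notes. The authors' deposited intensity values are linear, from 21.7 to 64873, although the file headers call them log2 transformed. The deposited fold change (larger over smaller intensity, per the file headers) was not used. The 8 deposited comparison tables carried the same 283288 intensities as the value table (relative tolerance 1e-06). Detection calls and unnormalized values were not used here, nor was an array build known.

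Of 35411 rows 33663 name a gene, and 31529 matched RefSeq (GRCm38.p6) by gene number. Each gene was represented by its row of highest mean log2 intensity. Intensities under the floor were raised to it, so that a difference with 1 side below is a bound ("at least"), and genes below both floors have a difference only where "without a floor" is written. Apart means 2-fold, a log2 difference of 1. With single arrays there was nothing to test, and the number of arrays limits the precision. The difference function was tested on simulated data. Full values are given for members above a floor and for Mki67, Top2a, Cdk1, the MCM genes and the kinase inhibitors, and other pathway genes are those above a floor with the largest differences, up to 3 a list, comparison and direction. Values of Ccnd3, Ccne1, Birc5, Tyms and Aurka, and the genes named without a floor, were added after their values were seen, and so were Dnmt1 and the single marker genes. Members and lists were chosen with earlier results of these data known. Alternatives were centring on the median, removal of a lowess trend on intensity (fraction 0.3), no floor, floors at the 99th and 75th percentile, the mean of all rows, matching by name alone and quantile normalization of each pair. Python 3.11.15, numpy 2.4.6, pandas 2.3.3 and statsmodels 0.14.6 were used.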

Additional observations from a re-analysis of the deposited data

Results flagged for a closer look

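Ccnd2 and Cdk4, both above the floor on all 4 arrays, took opposite signs in the genotypes or states compared, in the settings reported. Between labelled activated and naive cells, Ccnd2 differed by -0.646 for wild type but 0.0826 for miR-7 deficient mice, and Cdk4 by -0.110 and 0.0720. For miR-7 deficient minus wild type, Ccnd2 differed by -0.0045 in the naive pair and 0.724 in the activated-labelled pair, and Cdk4 by -0.122 and 0.0599. These differences of differences were not tested, each value rests on 1 array per group, and all 4 values of Cdk4 are smaller than the pooled SD between rows of a gene (0.34 to 0.45). So are the Ccnd2 values of 0.0826 and -0.0045. With the mean of its rows, Ccnd2 was higher in miR-7 deficient mice in both pairs, so its opposite signs between the genotypes were lost. For Cdk4 between labelled activated and naive cells the opposite signs were lost after centring (0.0334 and 0.194) and with each pair normalized alone (-0.422 and -0.0925). The second row of Ccnd2, without a floor and with at least 1 value below the floor in each comparison, gave 0.28 and 0.03, and 1.24 and 0.98, in the same order.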

How the results depend on the processing

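No paired analysis was possible because each group has 1 array and the labels give no replicate numbers; for the same reason no array could be left out. The count above the floor depends on where the floor is put. At the 99th percentile 1 and 2 members passed in the naive pair (wild type, then miR-7 deficient) and 1 and 1 in the activated-labelled pair, and at the 75th percentile 11 and 19, and 15 and 14. The share of all genes on each array was not counted at these floors. At the 75th percentile 19 of 33 members passed on at least 1 naive array, against 10518 of 20735 genes. On at least 1 array labelled activated 17 passed, against 13103 genes. Labelled activated minus naive in wild type, the median of -0.65 became -0.18 with the mean of all rows. In this comparison 3 members were 2-fold higher and 6 lower without a floor, also with the trend removed, which was chosen after seeing the data. With the floor at the 75th percentile 2 of 18 were lower, against 1648 of 12524 genes. With the mean of all rows 1 was lower, and with the pair normalized alone 1. In miR-7 deficient mice 2 were higher and 15 lower without a floor, 2 and 12 with the trend also removed, 0 lower at the 99th percentile and 2 with the pair normalized alone. At the 75th percentile 8 of 22 were lower, against 2034 of 13106 genes. In naive cells 3 were higher in miR-7 deficient mice without a floor, 2 with the trend also removed and 1 of 19 at the 75th percentile (against 391 of 10518 genes). On the arrays labelled activated, 1 was higher and 3 lower without a floor, also with the trend removed, and 1 and 1 of 17 at the 75th percentile (against 452 and 455 of 13103 genes). The median there was -0.13 without a floor, -0.12 with the trend also removed and 0.72 at the 99th percentile, where Ccnd2 alone was left. Of the values for single genes, 122 moved by less than the spread between rows and 12 by more. Many of the 122 could not move. Matching by name alone kept every row of these genes, and a value above both floors did not change with a lower floor. For genes with 1 row the mean of rows was that row. Values lost under a setting were not counted. Among medians and counts of members, 35 were labelled moved and 89 not. Ccnd2 in the naive pair was 0.62 with the mean of its rows and Pcna 0.15 with the floor at the 99th percentile. No detection calls were used here, so a member below the floor may still be expressed.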
